A study of Homo sapiens with 4 samples.

Results

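The enzymes described here build the antennae of N-linked glycans in the Golgi and cap their ends. They were chosen by name as 10 of the 62655 Ensembl genes in the count table: MAN2A1, MGAT1, MGAT2, MGAT3, MGAT4A, MGAT4B, MGAT5, FUT8, B4GALT1 and ST6GAL1. All 10 were found by their gene IDs, and 9 passed the filter on low counts and were among the 14464 genes tested. The 10 names were picked with the difference between mimic and control already known, so their fold changes are given as a description. Where the fit over all genes called a member, that is stated once beside the share of all genes called, and it is not evidence for any pattern among the members.

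The cells were Hep G2, a human line established from a liver carcinoma, kept in medium rich in oleic acid for 24 h before transfection so that they filled with lipid. For 2 libraries the cells were then transfected with an oligonucleotide mimic of LysTTT-5'tRF, a fragment from the 5' end of a lysine tRNA, and for 2 with a negative control oligonucleotide. RNA was taken 24 h after transfection. All 4 libraries share the lipid load and the transfection. Which separate cultures the libraries came from is not stated, and the spread between them may be technical. Control columns of the count table are named with the series' abbreviation for its negative control; the other columns start with a number of unexplained meaning and were read as the mimic, the only other treatment.

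Most secreted liver proteins carry N-glycans, which are attached in the endoplasmic reticulum and remodelled in the Golgi. MGAT1 starts the first antenna, the mannosidase MAN2A1 trims the core, MGAT2 adds the second antenna, and the MGAT4 enzymes and MGAT5 add further branches, while MGAT3 adds a bisecting sugar that hinders more branching. FUT8 fucosylates the core, B4GALT1 adds galactose to the antennae, and ST6GAL1 closes them with sialic acid. Branches made by MGAT5 are known for carrying long galactose-containing chains that galectins bind, and MGAT5 and FUT8 are known for being raised in liver cancer.

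Reads counted to genes ranged from 15430539 to 18961222 per library. Of 9 hepatocyte and hepatoma markers all were tested, and their summed level was 48556 to 48936 CPM (reads per 1000000 after TMM scaling of the library sizes) with the mimic and 45853 to 47679 CPM in the control. Of 12 markers of blood, endothelial, mesenchymal and bile duct cells 6 (PTPRC, HBB, CD3E, COL1A2, DCN and KRT7) had no read in any library, and the summed level of the list was 31.8 to 32.4 CPM with the mimic and 27.4 to 30.8 CPM in the control. PDGFRB was the highest of this list, at a mean of 17.0 CPM over the 4 libraries. Of the 12 markers 5 were tested, and none of them was called. Albumin (ALB) alone of the hepatocyte markers was called, higher with the mimic at a log2 fold change of 0.23, while TTR stood at 0.26, AFP at 0.13 and FGB at 0.11 without passing, each with groups that did not overlap, and APOB, which makes up most of the sum, at 0.00. Of these shifts those of ALB and TTR are near the size of those of MGAT5 and MGAT4A below, and AFP and FGB are smaller. Over the 9 markers 7 lay above and 2 below 0 (median 0.03), with HNF4A at -0.05 and SERPINA1 at 0.03. The part of these shifts in the results was not tested.

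The branching enzymes MGAT5 and MGAT4A were higher with the mimic in each library of the pair than in either control library, by about 1.20-fold and 1.18-fold. The trimming mannosidase MAN2A1 was higher by 1.09-fold. MGAT1, which opens the pathway, MGAT4B, which makes the same branch as MGAT4A, and the capping enzyme ST6GAL1 stood at nearly equal levels in the groups. B4GALT1 was the one tested member with a fold change below 0 on the log2 scale. In bulk RNA a change in the number of expressing cells and one in RNA per cell cannot be told apart.

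MGAT5 (ENSG00000152127, protein-coding, chromosome 2 from 134119983 to 134454621 of GRCh38, plus strand) encodes the enzyme of the outermost branch. It had 299.7 and 296 CPM in the mimic libraries, against 249.5 and 245 CPM in the control libraries. The groups were far apart relative to the gap within each. On the log2 scale the mimic stood 0.27 above the control (SE 0.05, 95% interval 0.17 to 0.36). The stretch before the MGAT5 start is printed to show the region that precedes the member with the larger of the differences above, beside that of B4GALT1, the one that lay below. Each stretch runs from 250 to 51 bases before a start in RefSeq on GRCh38.p14, for MGAT5 chr2:134119685-134119884 on the plus strand and for B4GALT1 chr9:33167387-33167586 on the minus strand, and capitals mark GGAA, the core recognised by ETS factors, on either strand.
MGAT5: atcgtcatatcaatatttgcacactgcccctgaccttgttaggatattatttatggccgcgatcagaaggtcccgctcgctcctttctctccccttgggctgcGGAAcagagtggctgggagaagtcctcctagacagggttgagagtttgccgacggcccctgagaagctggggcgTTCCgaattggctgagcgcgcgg
B4GALT1: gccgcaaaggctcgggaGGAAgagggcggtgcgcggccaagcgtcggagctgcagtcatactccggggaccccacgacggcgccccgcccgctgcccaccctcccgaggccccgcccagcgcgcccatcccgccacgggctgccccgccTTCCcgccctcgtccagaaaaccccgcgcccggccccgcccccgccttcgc
GGAA or its reverse complement occurred 2 times in each, and at least once in 88.2% of 35116 RefSeq stretches of this length and position. GGGCGG, the GC box, searched on both strands, was not among the letters of the MGAT5 stretch and occurred 5 times in that of B4GALT1, with 35.0% of all stretches holding it, and 1 of the GGAA matches before B4GALT1 overlapped a GGGCGG match. GC content was 56.5% before MGAT5 and 78.5% before B4GALT1, where the median of all stretches was 57.5%. Another start of B4GALT1 (chr9:33167210-33167409) had 0 GGAA and 6 GGGCGG matches in its stretch, and another of MGAT5 (chr2:134253822-134254021) had 2 and 0. Of the 10 members 8 had an entry in the RefSeq table, and which start was in use in these cells was not measured. Among members with 1 start listed, GGGCGG occurred 4 times before MAN2A1, 1 time before ST6GAL1 and 0 times before MGAT2. GC content there was 76.0%, 66.0% and 60.0%. A link between these letters and the differences of the members was not tested.

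MGAT4A (ENSG00000071073, protein-coding, chromosome 2 from 98619106 to 98731126, minus strand) encodes 1 of the enzymes of the branch that MGAT4B also makes. It had 370.3 and 364 CPM in the mimic libraries, against 319 and 304 CPM in the control libraries. The groups did not overlap, and the second control library was the lowest. The log2 fold change was 0.24 (SE 0.05, 95% interval 0.14 to 0.33). MGAT4B (ENSG00000161013, chromosome 5 from 179797597 to 179806952, minus strand) had 187 and 196 CPM with the mimic, against 188 and 190.1 CPM in the control. These values overlapped between the groups, and the 95% interval of the log2 fold change ran from -0.09 to 0.13. The longest run of bases that protein-coding transcripts of MGAT4A and MGAT4B have in common is printed to show how far reads of these paralogs could be confused. It spans a splice junction within the coding sequence of each, on GRCh38 at chr2:98644050-98645446 for MGAT4A and chr5:179799633-179799972 for MGAT4B, minus strand, where these positions include the intron between.
MGAT4A and MGAT4B: tcccagctgggcttcattggtaa
This run held 23 bases, all coding, in the transcripts of GENCODE 29. Per length of exon sequence MGAT4A made up 53.0% and 51.5% of the sum of MGAT4A and MGAT4B in the mimic libraries, against 49.3% and 47.7% in the control libraries. Which of the pair was the more abundant depends on the length used, since with the longest transcript as the length MGAT4B stood at 62.8 ± 1.29 and MGAT4A at 40.2 ± 3.87 CPM per kilobase (mean ± SD over the 4 libraries).

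**Figure D1:**
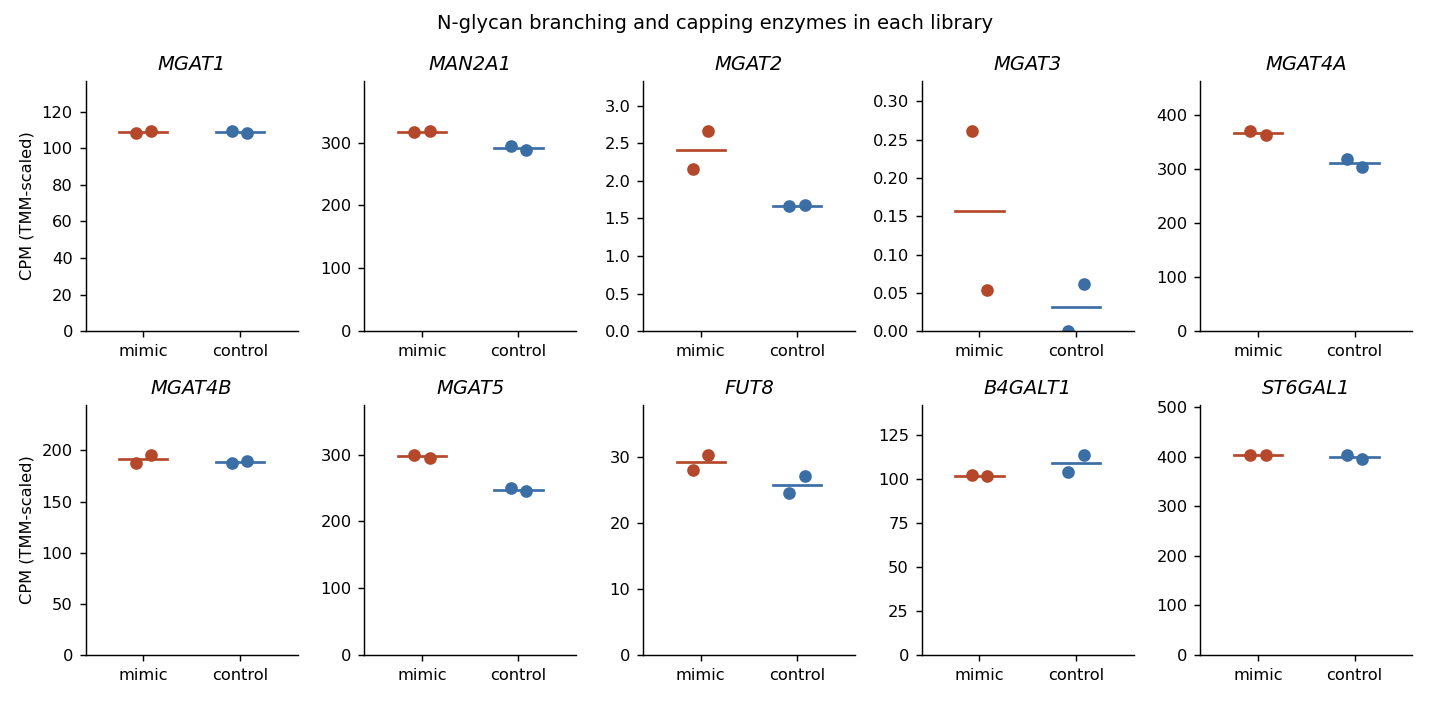
Each panel plots a member's level in CPM (TMM-scaled, axis from 0) in the 2 mimic and the 2 control libraries, with a line at the group mean. MGAT5, at 299.7 and 296 CPM with the mimic against 249.5 and 245 CPM in the control, and MGAT4A show the widest gaps between groups in CPM, while MGAT1 is at 108 to 109 CPM in every library.

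MGAT1 (ENSG00000131446, chromosome 5 from 180784782 to 180815652) had 108 and 109 CPM with the mimic and 109 and 108 CPM in the control. Its 4 values had a coefficient of variation of 0.465%, the smallest of the members, and the interval of its log2 fold change ran from -0.12 to 0.12. MAN2A1 (ENSG00000112893, chromosome 5 from 109689366 to 109869625) had 316 and 318 CPM with the mimic, against 295 and 288 CPM in the control. The groups did not overlap, with a log2 fold change of 0.12 (SE 0.05, 95% interval 0.03 to 0.22). Relative to MGAT1 within a library, the CPM ratio of MGAT5 was 2.77 and 2.70 with the mimic and 2.29 and 2.26 in the control, and that of MGAT4A 3.42 and 3.33 with the mimic and 2.93 and 2.80 in the control. MGAT5 relative to MGAT4A was 0.809 and 0.813 with the mimic and 0.781 and 0.807 in the control. Thus the proportion of this pair was nearly the same in the 4 libraries. Both were picked with their differences known, so nothing is read from this.

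MGAT2 and MGAT3 were barely counted. MGAT2 (ENSG00000168282, chromosome 14 from 49620795 to 49623481, plus strand) had 33 and 50 reads with the mimic and 28 and 27 in the control, or 2.16 and 2.66 CPM against 1.66 and 1.68 CPM. Its log2 fold change was 0.54, and the 95% interval, -0.17 to 1.25, was too wide to place it on either side of 0. An antisense gene, ENSG00000258377, covers 91.9% of the MGAT2 exon sequence in GENCODE 29 and had no read in any library. Opposite-strand cover of more than 80% of the exon sequence, a limit set after the MGAT2 value was seen, held for 39 protein-coding genes. Of these 38 (97.4%) lay under 5 CPM, against 55.8% of 13141 genes with no such cover. Their median was 0.0 CPM, against 1.51 CPM without cover, so unexpressed genes and genes that lost reads cannot be told apart here. Whether strand was used in counting is not stated in the sources used here. If it was not, reads shared by such a pair would be assigned to neither gene, and the part of this in the low MGAT2 count was not tested. MGAT3 (ENSG00000128268, chromosome 22 from 39457344 to 39492194) had 4 and 1 reads with the mimic and 0 and 1 in the control and did not pass the filter. A count of 0 allows up to 3 reads, or 0.178 CPM in that control library, counting error only. No difference of MGAT3 was detectable at this depth.

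The core fucosyltransferase FUT8 (ENSG00000033170, chromosome 14 from 65410592 to 65744121) had 28.0 and 30.3 CPM with the mimic, against 24.4 and 27.1 CPM in the control. The groups lay next to each other without overlap, and the log2 fold change was 0.18 (95% interval -0.03 to 0.39), with 0.11 to 0.26 when 1 library was left out. An antisense gene covers 12.3% of its exon sequence and had 1 or 2 reads per library. B4GALT1 (ENSG00000086062, chromosome 9 from 33104082 to 33167356), which adds galactose, had 102 and 101 CPM with the mimic, against 104 and 114 CPM in the control. Its lower fold change (log2 -0.09, 95% interval -0.22 to 0.04) was -0.03 without the second control library and -0.16 without the first. ST6GAL1 (ENSG00000073849, chromosome 3 from 186930485 to 187078553), which adds sialic acid, had 403.8 and 402.9 CPM with the mimic and 402.9 and 394 CPM in the control. The 95% interval of its log2 fold change ran from -0.08 to 0.11.

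Over all genes 0.346% passed edgeR's quasi-likelihood test at an adjusted p under 0.05, and 2 of the 9 members tested, MGAT4A and MGAT5, were among them, both higher, where 0.277% of all genes were called higher and 0.0691% lower. The median log2 fold change of the 9 was 0.12, against 0.00 for all genes tested. In 7 of the 9 the groups did not overlap, with 6 higher and 1 lower with the mimic, where 39.1% of all genes did not overlap. For ST6GAL1 that absence of overlap was smaller than the rounding of the values above. Since the members were picked with this contrast known, nothing is read from these counts. MGAT5 was no longer called without the first mimic library (log2 fold change 0.25), and MGAT4A without the first mimic library (0.22) or the second control library (0.20). Neither was called when no filter on low counts was applied, where edgeR called 0 genes of all.

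**Figure D2:**
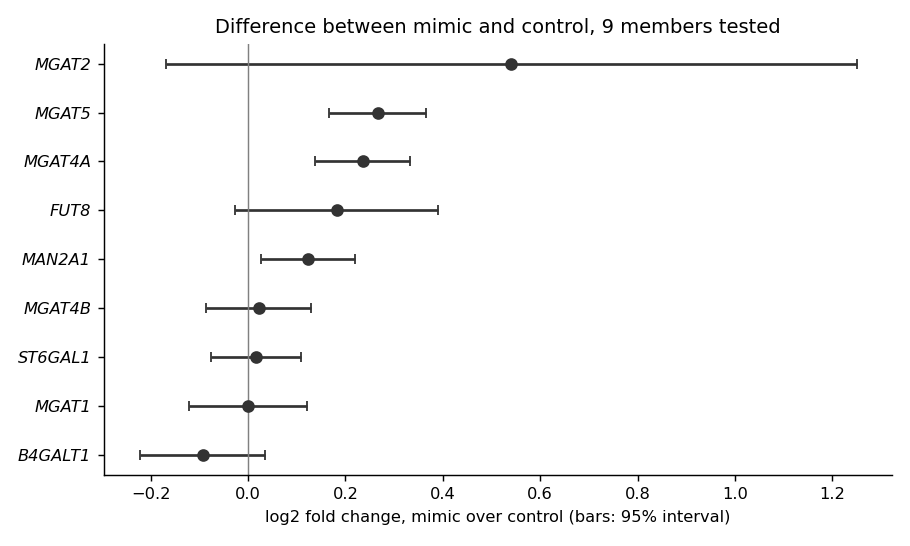
Log2 fold change of mimic over control for the 9 members tested, with points for the estimate and bars for the 95% interval. MGAT5 (0.27), MGAT4A (0.24) and MAN2A1 (0.12) have intervals above 0, those of MGAT1, MGAT4B and ST6GAL1 lie around 0, and MGAT2, with 27 to 50 reads per library, has the widest.

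Gene length and abundance had a small trend over all genes that touches these values. The median log2 fold change was -0.02 in the 2818 tested genes with the shortest genomic span and 0.02 in the 2817 with the longest, among them MGAT5, MGAT4A, MAN2A1, FUT8 and ST6GAL1. It was 0.02 in the 2817 most abundant genes, among them 7 members. The part of this trend in the members' values was not tested.

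Per length, ST6GAL1 led with 43.8 ± 0.484 CPM per kilobase of exon sequence (mean ± SD over the 4 libraries), above MGAT4A at 35.2 ± 3.39, MGAT4B at 34.6 ± 0.711 and MGAT5 at 31.8 ± 3.39. The ranges of MGAT4A and MGAT4B overlapped, as did those of MGAT4B and MGAT5, so the place of MGAT4B among these 3 is not set by the data, while MGAT5 was below MGAT4A in each library (per-length ratio 0.909 and 0.912 with the mimic, 0.877 and 0.906 in the control). MAN2A1 followed at 25.8 ± 1.30 and B4GALT1 at 21.5 ± 1.15 CPM per kilobase, each below its neighbour in every library. MGAT1 had 9.40 ± 0.0439 CPM per kilobase, FUT8 4.10 ± 0.361, MGAT2 0.759 ± 0.176 and MGAT3 0.0173 ± 0.0210. With the longest transcript as the length 6 of the 10 kept their place, while MGAT4B moved to the second, MAN2A1 to the third, MGAT4A to the fourth and MGAT5 to the fifth place.

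**Figure D3:**
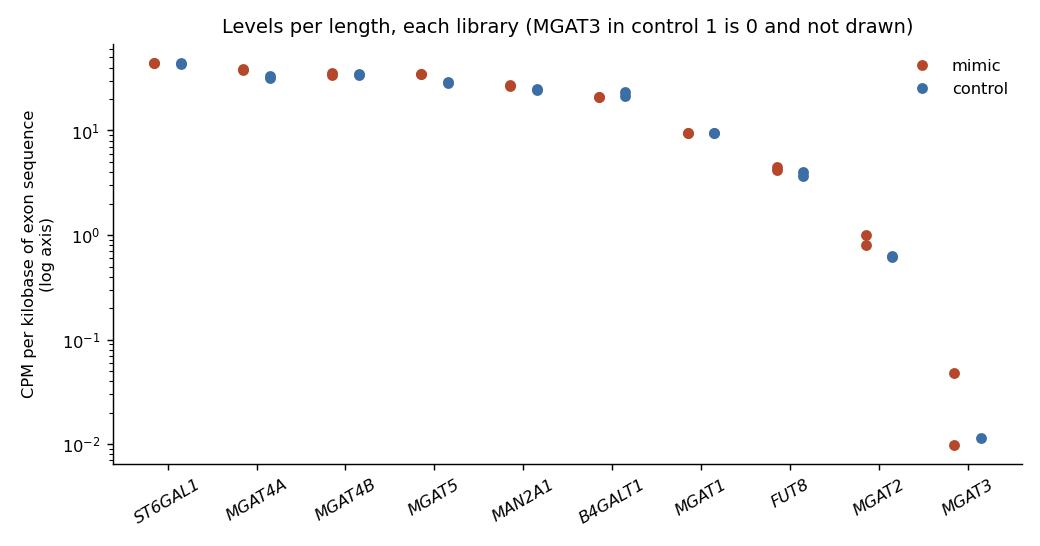
Level per length of each member in CPM per kilobase of exon sequence on a log axis, with each mimic and control library as a point and members ordered by their mean. From ST6GAL1 at 43.8 to MGAT3 at 0.0173 CPM per kilobase the means span several powers of 10, and the zero of MGAT3 in the first control library is not drawn.

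Enzymes related to the members differed in how far they were expressed. Whether these relatives could take the members' place on N-glycans was not measured. MAN2A2, the sister of MAN2A1, stood at 5.31 ± 0.262 CPM per kilobase (mean ± SD, 4 libraries), below MAN2A1, with a log2 fold change of 0.08. MGAT4C and MGAT4D had no read in any library, which allows up to 0.160 to 0.196 CPM per library, and MGAT5B had 4 and 6 reads with the mimic and 3 and 4 in the control, so branches of these kinds had MGAT4A, MGAT4B and MGAT5 as their main counted enzymes. Among galactosyltransferases B4GALT5 stood at 26.7 ± 2.21 CPM per kilobase, above B4GALT1, with B4GALT2 at 13.2 ± 0.927 and B4GALT3 at 10.1 ± 0.656. ST6GAL2 had no read. Of the sialyltransferases of the other linkage, ST3GAL3, ST3GAL4 and ST3GAL6 stood at 0.109 ± 0.0298, 1.96 ± 0.162 and 2.57 ± 0.0952 CPM per kilobase, well below ST6GAL1. ST3GAL1 is given in CPM, not per length, at a mean of 96.7 CPM over the 4 libraries, against 401 CPM for ST6GAL1. Of these relatives none passed the test between mimic and control (edgeR's quasi-likelihood test, Benjamini-Hochberg).

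Across the rest of the N-glycan pathway no gene passed. Of 149 genes in 8 lists 134 were tested, and edgeR's quasi-likelihood test, DESeq2 and limma voom each called 0 of them. DESeq2 gave no adjusted p to some of them, among these GMPPB, FUT3, ALG10B and FUT6, and so could not call those. Without the first control library edgeR called 6, and without the second 1. At an unadjusted p under 0.05 there were 14 by edgeR, where 9.43% of all tested genes were. The median log2 fold change of the 134 was 0.00, with 70 above and 64 below 0, and the groups did not overlap in 26 with the mimic higher (19.4%; 19.8% of all genes) and in 25 with it lower (18.7%; 19.3% of all genes).

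Of 19 tested Golgi enzymes that extend or cap N-glycans beside the members none passed, with a median log2 fold change of -0.06. FUT3, an antennal fucosyltransferase, had 7.32 and 6.65 CPM with the mimic and 4.94 and 2.79 CPM in the control (log2 fold change 0.84, SE 0.24). FUT6, its close paralog, had 12.9 and 11.7 CPM with the mimic and 14.4 and 19.9 CPM in the control (-0.48, SE 0.15). These paralogs share long near-identical sequence, so the split of their reads is uncertain, and neither passed (adjusted p = 0.182 and 0.241 in edgeR's test after Benjamini-Hochberg adjustment). Both differences were called without the first control library, at 1.31 and -0.70, and stood at 0.50 and -0.23, not called, without the second.

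Of 14 trimming genes none passed (median 0.01). EDEM2 and EDEM3, which act on mannose residues of misfolded glycoproteins, had log2 fold changes of -0.25 (SE 0.09) and -0.22 (SE 0.08), and EDEM3 was called without the first control library, at -0.30, and stood at -0.14, not called, without the second. Of 24 genes that assemble the dolichol-linked precursor none passed (median 0.03), among them the glucosyltransferase ALG10B at -0.53 (SE 0.16), with a near-identical paralog in ALG10, and the dolichyl pyrophosphate phosphatase DOLPP1 at 0.31 (SE 0.10). The 11 tested subunits of the oligosaccharyltransferase, which moves the precursor onto proteins, had a median of 0.02, with the catalytic subunit STT3B at 0.06 (0.01 without the first mimic library) and OST4 at -0.07 (-0.04 without it).

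Of 27 genes for making and importing nucleotide sugars none passed, and 18 lay below 0 (median -0.04), where 7180 of all 14464 genes tested did. GMPPB, which makes GDP-mannose, had 7.25 and 8.25 CPM with the mimic and 12.5 and 11.7 CPM in the control. Its log2 fold change of -0.64 (SE 0.16) had the smallest p of the 134 genes. It did not pass (adjusted p = 0.101 in edgeR's test after Benjamini-Hochberg adjustment). Of the GMPPB exon sequence 42.3% overlaps AMIGO3 on the same strand and 17.3% RNF123 on the opposite strand, so its count is less certain. MPI, which forms mannose phosphate, stood at -0.25 (SE 0.14) with overlapping groups, and at -0.43 without the first control library, -0.42 without the second mimic library, -0.12 without the first mimic library and -0.04 without the second control library.

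The 16 genes of Golgi trafficking, ion balance and enzyme shedding had a median of 0.02, with the COG complex subunits COG1 at -0.22 and COG3 at 0.15. The 12 tested lectins and cargo receptors that bind N-glycans had a median of 0.02, with the mannose phosphate receptor M6PR at 0.14 and galectin LGALS1 at -0.13, which was called without the first control library, at -0.23, and stood at -0.03, not called, without the second. The 11 genes of N-glycan breakdown had a median of 0.01, with the mannosidase MAN2C1 at -0.24 and the sialidase NEU1 at 0.06, a direction lost without the second control library. With all libraries none of the genes named from these 3 lists passed the test.

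**Figure D4:**
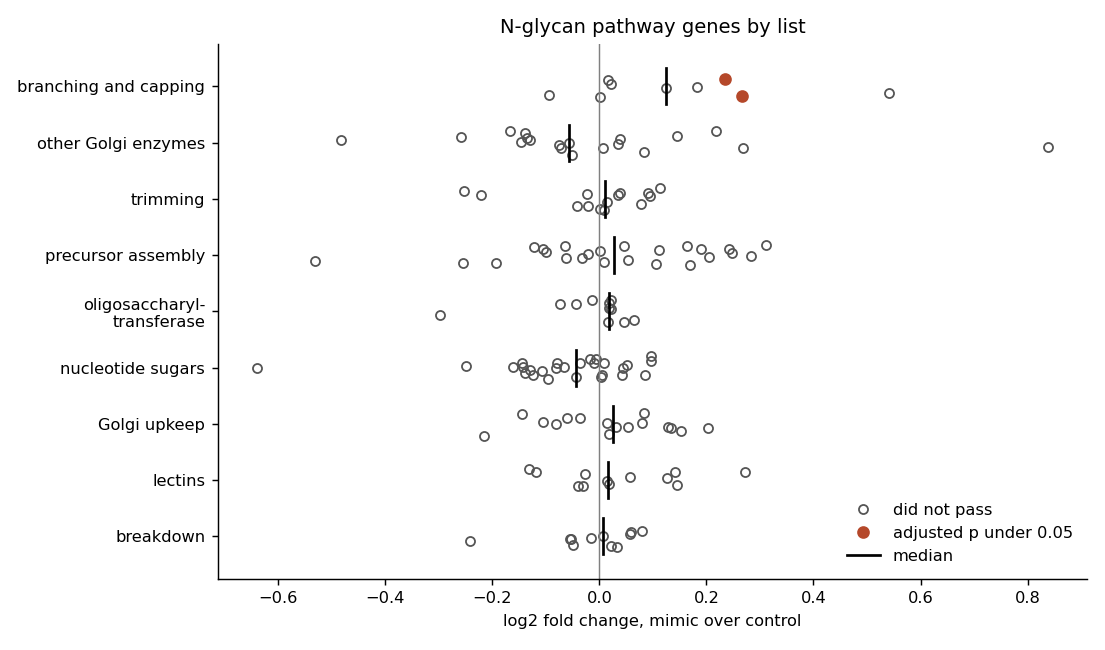
Log2 fold change of mimic over control for each tested gene of the 9 N-glycan lists, with a point per gene, filled where the adjusted p was under 0.05, and a line at each list's median. The filled points are MGAT4A and MGAT5 in the top list, whose members were picked with this contrast known, and no gene of the other 8 lists is filled.

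The pathway genes whose values over the 4 libraries were nearest to a member's were found by the mean absolute difference of log2 CPM, each centred on its own mean, among the 134 genes. For MGAT2, the member with the largest fold change, these were ALG1 (0.13), ALG9 (0.136) and ALG14 (0.145). For MGAT4A, added after the values were seen, they were NUS1 (0.0267), ALG11 (0.0328) and ALG14 (0.0331), and for MGAT5, added likewise, ALG14 (0.0334), NUS1 (0.0378) and DOLPP1 (0.048). MGAT4A and MGAT5 were nearer to each other, at 0.0194, than to any of these. With 4 libraries many genes are near each other by such a measure. The gap between mimic and control enters it, and MGAT4A and MGAT5 were picked with that gap known. Nothing is therefore read from their nearness.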

How the data were processed

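Per the labels' protocols, poly(A) RNA from 4 Hep G2 samples was sequenced with a stranded kit on a NextSeq 500. The authors deposited raw counts of reads per Ensembl gene; per the submitters' processing notes these came from FastQC, Bowtie2, STAR and HTSeq on GRCh38.p14, with versions, annotation release and strand setting not given in the sources used here. Another 5 HTSeq entries name no gene, held 23.1% to 24.1% of each library's reads and were left out.

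Symbols were found for 62590 of 62655 IDs. Genes passing edgeR's filterByExpr (at least 10 reads, 15 in total) were scaled by TMM and tested with edgeR 4.0.16 in R 4.3.3 (quasi-likelihood F test, legacy = FALSE, Benjamini-Hochberg over 14464 genes, threshold 0.05). The steps were tested on simulated data with planted differences larger than those of MGAT5 and MGAT4A. Differences as small as theirs were not simulated. CPM are reads per 1000000 after TMM scaling. Lengths, positions and overlaps came from GENCODE 29 on GRCh38, promoter sequences from RefSeq. Counts of near-identical paralogs and of genes whose exons overlap another gene on either strand are less certain.

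The members, the lists and the tests were chosen with earlier results of these data known. Named were all members and, from each other list, called genes and the 2 with the smallest p; isozymes were added. Alternatives were DESeq2 1.42.0, limma 3.58.1 (voom), other scalings and filters, a block, and each library left out.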

Additional observations from a re-analysis of the deposited data

How the results depend on the processing

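The numbers of genes called over all 14464 tested (50), among the 149 other pathway genes (0) and among the members (2) stayed within 1.5 times under legacy = TRUE, limma voom, RLE factors, upper-quartile scaling, library totals and a filter at a mean of 10 CPM. DESeq2 called 30 genes in all and still both members. Without a filter on low counts 0 genes and 0 members were called. Leaving out 1 library gave 20 to 424 genes in all, 0 to 6 other pathway genes and 0 to 2 members; the group left with 1 library was then assumed to vary like the other. The count was 20 without the first mimic library, 120 without the second, 424 without the first control library and 22 without the second. MGAT5 ranged from 0.25 to 0.28 and MGAT4A from 0.20 to 0.27 (log2 fold change) over the 13 other settings, above 0 in all of them. NEU1 ranged from -0.0036 to 0.122 with 1 library left out, below 0 without the second control library. With longest transcripts as the length 6 of 10 members kept their place in the order. The cause of these shifts was not tested. The sample titles number the mimic 1 and 2 and the controls 3 and 4 and so give no pairing; with the column numbers as a replicate block edgeR called 306 genes in all and 3 other pathway genes (FUT3, FUT6 and GMPPB), but same-numbered columns hardly deviated together (correlation of deviations 0.0234 over 14464 genes). With 2 libraries per group small differences stay undetected, and MGAT2 and MGAT3 are limited by their few reads.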
